A study of Mus musculus with 7 samples.

Results

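The nuclear genes of respiratory complexes II, III, IV and V, with cytochrome c, were described across 7 whole kidney libraries from male mice. Members were the protein-coding genes whose symbols name a succinate dehydrogenase subunit, a Uqcr gene, Cyc1, Cycs, a Cox4 to Cox8 gene or an Atp5 gene. The rule gave 49 genes among the 48709 Ensembl genes of the count table: 4 of complex II, 9 of complex III, Cycs itself, 17 of complex IV and 18 of complex V. All 49 passed the filter on low counts, but they had been taken from a table from which the authors had already removed low rows, so genes of these families below that limit are not included.

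Wild-type mice (WT, 3 libraries) were compared with double knockouts of Hs3st3a1 and Hs3st3b1 (DKO, 4 libraries), which encode heparan sulfate 3-O-sulfotransferases, enzymes that add a sulfate group to heparan sulfate chains on the cell surface and in the matrix. The labels number the libraries of WT as replicates 1, 2 and 4 and those of DKO as 1 to 4, and give each library its own animal number. The labels do not state strain, age, littermate status or the deleted parts of either gene. The kidneys were whole organs, so fewer cells of a type and less RNA per cell cannot be told apart.

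The respiratory chain sits in the inner mitochondrial membrane and passes electrons from nutrients to oxygen. Complex II (succinate dehydrogenase, also an enzyme of the citric acid cycle) feeds electrons to ubiquinone, complex III passes them to the soluble carrier cytochrome c, complex IV reduces oxygen, and complex V (ATP synthase) uses the proton gradient that complexes III and IV help to build. All subunits of complex II are nuclear, whereas the cores of complexes III, IV and V also hold subunits that the mitochondrial genome encodes. In the kidney, the proximal tubule and the thick ascending limb are rich in mitochondria, which supply the energy for salt and solute transport.

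Library totals ran from 18330929 to 24259400 counts. Hs3st3a1 had 12 to 29 reads per library in WT and 0 to 3 in DKO. Hs3st3b1 had 56 to 112 reads in WT and 33 to 108 in DKO, so its counts did not separate the genotypes. The sources used here do not say whether those reads come from the part that was deleted. WT replicate 4 stood apart for the genes described here: it was the highest of the WT libraries in 41 of 49 members and the highest of all 7 libraries in 39. At the other end, DKO replicate 3 was the lowest of all 7 in 29 members and DKO replicate 2 in 17. Results are therefore also given without WT replicate 4.

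Most members were lower in DKO kidneys, although none passed the adjusted threshold of the main test. In edgeR's quasi-likelihood test with Benjamini-Hochberg adjustment over 15394 genes, 0 members had an adjusted p under 0.05, as had 0% of all genes tested, and the lowest adjusted p of a member was 0.163. By direction alone, 44 of 49 members were lower in DKO, against 46.8% of all genes. At an unadjusted p under 0.05, 29 members were lower, against a background of 11.3% of genes, and 1 (Sdha) was higher, against 9.86%. All 4 DKO libraries were below all 3 WT libraries in 19 members, where 9.04% of all genes did so, and above in 1, where 8.34% did. The median log2 fold change (DKO minus WT) of the 49 was -0.56, while that of all genes was 0.04.

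DESeq2, a second count test, called 11 of the members lower at an adjusted p under 0.05, against 2.97% of the 13001 genes it gave an adjusted p. They were Uqcrq, Uqcrh, Uqcr10, Cycs, Cox7b, Atp5f1c, Atp5f1e, Atp5if1, Atp5mf, Atp5pb and Atp5pd, with DESeq2 adjusted p from 0.0252 to 0.0495. These members sat in complexes III, IV and V and in cytochrome c, and included none of complex II. The call depends on the tool: for Uqcrq, the adjusted p was 0.0252 in DESeq2, 0.163 in edgeR and 0.192 in limma-voom. Over 17 alternative settings, which also changed the scaling, the model or the libraries used, it reached 0.854. In all, limma-voom called 0 members, with 28 lower at an unadjusted p under 0.05, against 10.8% of all genes.

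The count also depended on the libraries. Without WT replicate 4, 44 of 49 members were still lower in DKO, but 11 passed an unadjusted p under 0.05 in edgeR, against 4.45% of all genes, and the median was -0.34. In 32 members the log2 fold change was smaller by more than 1.5 times, or changed sign, without that library. Without DKO replicate 2, 16 passed, against 7% of all genes, with a median of -0.51. When only WT replicates 1 and 2 and DKO replicates 1 and 2 were compared, whose animal numbers share their first digits, 3 passed, against 2.1% of all genes, with a median of -0.33. The sources used here do not say what the animal numbers mean.

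**Figure D1:**
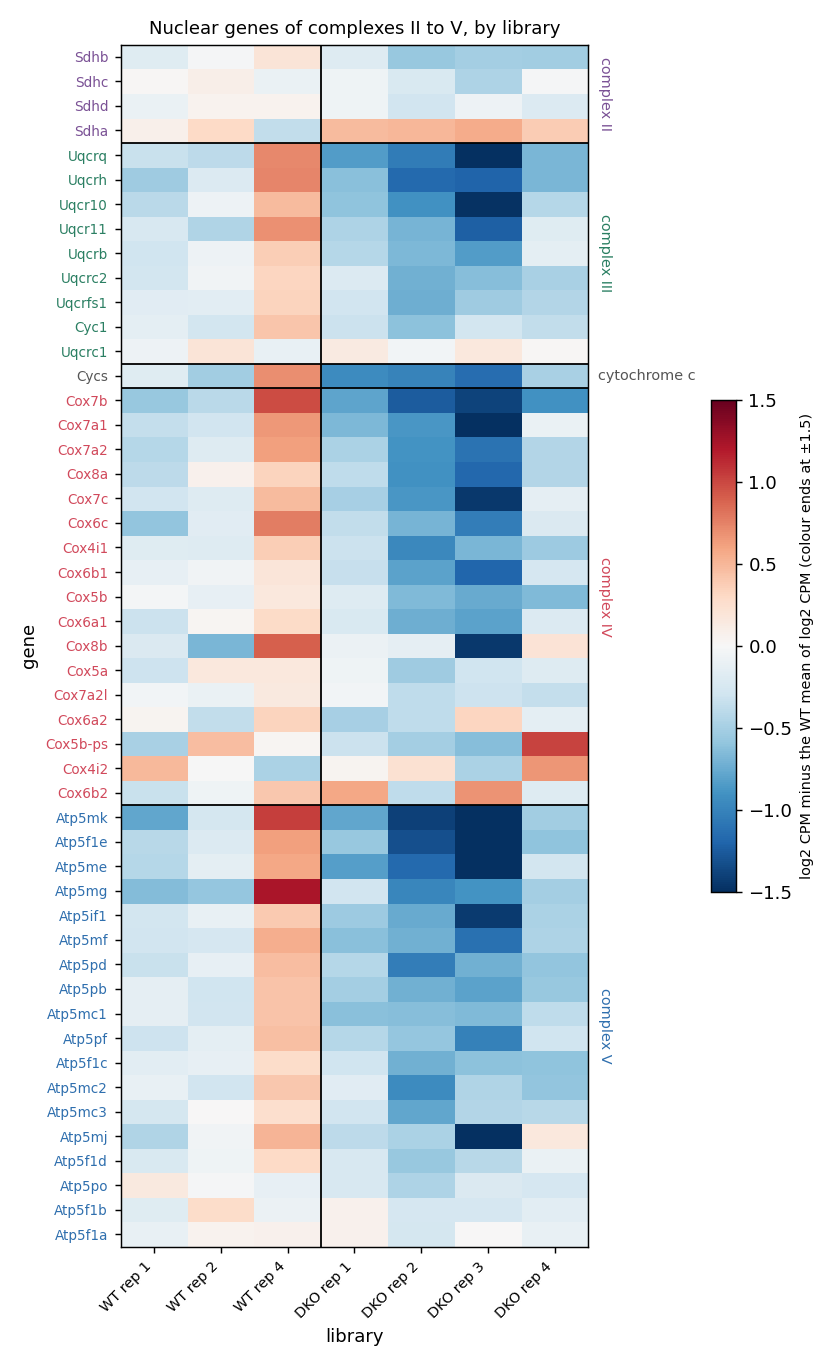
Log2 CPM (TMM-scaled) of each member minus its mean over the WT libraries, by library, with genes on the vertical axis ordered by complex and log2 fold change. WT replicate 4 is red for most genes, DKO replicates 2 and 3 are the bluest columns, and Sdha is the member that is red in all 4 DKO libraries and paler or blue in WT.

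The levels of the complexes are given first as sums. Summed over its members, complex II stood at 4303 ± 264 CPM in WT (SD, n = 3) and 3979 ± 262 in DKO (SD, n = 4), so that DKO had 92.5% of the WT level. For complex III the sums were 6459 ± 1738 and 4330 ± 552 CPM, or 67.0%. Complex IV summed to 9753 ± 2865 CPM in WT and 6076 ± 1223 in DKO, or 62.3%. Complex V summed to 15438 ± 2463 and 11425 ± 1217 CPM, or 74.0%. Taking all 49 genes, their summed CPM ran from 30380 to 44232 in WT libraries and from 23141 to 29400 in DKO libraries. The highest WT value was that of replicate 4. These sums are weighted towards the most abundant members. Without WT replicate 4, whose complex IV sum was 13018 CPM against 7659 and 8583 in the other WT libraries, DKO had 93.3% of the WT sum for complex II, 79.3% for III, 74.8% for IV and 81.1% for V. The median log2 fold changes without it were -0.19, -0.33, -0.34 and -0.36, against -0.17, -0.52, -0.56 and -0.60 with it. By this measure complexes III, IV and V lay close together with and without that library. No test of the difference between complexes was made.

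By the median over members in each library, relative to the WT mean on the log2 CPM scale, complex III stood at -0.28, -0.16 and 0.42 in WT replicates 1, 2 and 4 and at -0.43, -0.72, -0.84 and -0.42 in DKO replicates 1 to 4. Complex V stood at -0.27, -0.13 and 0.43 in WT and at -0.41, -0.72, -0.76 and -0.44 in DKO. In complex IV the groups overlapped, since WT replicate 1 was at -0.31 and DKO replicate 4 at -0.21. Complex II spanned a narrow range, from -0.04 to 0.06 in WT and from -0.27 to -0.07 in DKO. WT replicate 4 was thus the highest WT library for complexes III, IV and V but not for complex II, where WT replicate 2 was.

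**Figure D2:**
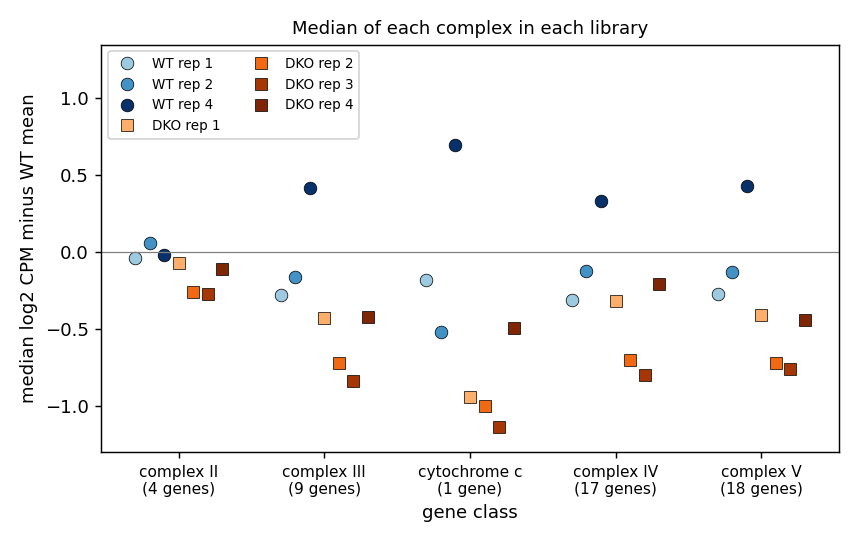
Median over the genes of each complex of log2 CPM minus the WT mean, 1 point per library, with circles for WT and squares for DKO. For complexes II, III and V the 4 DKO points lie below the 3 WT points, for complex IV and cytochrome c the groups overlap, and the dark WT replicate 4 lies highest in all classes except complex II.

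Complex II had 3 members lower and 1 higher in DKO; complexes III and IV also held members of either sign, while complex V did not. Complex II has a flavoprotein subunit that oxidises succinate (Sdha), an iron-sulfur subunit (Sdhb) and a pair of membrane anchors (Sdhc and Sdhd). Sdha (ENSMUSG00000021577, chr13:74322254-74350280, minus strand, GRCm38, GENCODE M21) was at 1087, 1267 and 800.3 CPM in WT replicates 1, 2 and 4 and at 1435, 1462, 1514 and 1344 in DKO replicates 1 to 4. Each DKO library was above each WT library, and WT replicate 4, the highest WT library for most other members, was the lowest here. The means were 1052 ± 236 (SD, n = 3) and 1439 ± 71.0 CPM (SD, n = 4), a log2 fold change of 0.45 with a standard error of 0.19 and an edgeR adjusted p of 0.215. Without WT replicate 4 the log2 fold change was 0.29, and when any library other than WT replicate 2 was left out Sdha no longer passed an unadjusted p under 0.05.

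Sdhb (ENSMUSG00000009863, chr4:140961203-140979193, plus strand) went the other way. It was at 2009, 2252 and 2603 CPM in WT and at 1993, 1538, 1600.2 and 1587 in DKO, so the groups did not overlap, although DKO replicate 1 lay close to WT replicate 1. The log2 fold change was -0.45 with a standard error of 0.18 and an edgeR adjusted p of 0.205, and -0.35 without WT replicate 4. The anchors overlapped between groups: Sdhc averaged 194 ± 12.3 CPM in WT and 171 ± 22.6 in DKO, and Sdhd 769 ± 45.1 and 689.7 ± 50.2. Sdhd reversed sign, from -0.16 to 0.09, when the trend of fold change with exon length and GC content was removed.

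Because Sdha and Sdhb join in a fixed ratio in the assembled enzyme, the ratio of their transcript levels was also taken, after their values had been seen and without a test. The ratio of CPM was 0.541, 0.563 and 0.307 in WT replicates 1, 2 and 4 and 0.72, 0.951, 0.946 and 0.847 in DKO replicates 1 to 4. It is not a ratio of transcript numbers, since the genes differ in length. WT replicate 4 had the lowest ratio of all 7 libraries.

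In complex III, 8 of 9 members were lower in DKO, 7 at an unadjusted p under 0.05, with a median log2 fold change of -0.52. Its small supernumerary subunits had the most negative values. Uqcrq (ENSMUSG00000044894, chr11:53427922-53430831, minus strand), which binds next to the mitochondrially encoded cytochrome b, was at 766, 732 and 1589 CPM in WT and at 537, 464, 330.3 and 597 in DKO. The DKO libraries all lay below WT, and WT replicate 4 was far above the other WT libraries. Its log2 fold change was -1.09, standard error 0.30, edgeR adjusted p 0.163, and -0.64 without WT replicate 4.

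Uqcrh, the hinge protein that helps cytochrome c1 meet cytochrome c, was at 206, 257 and 495 CPM in WT and at 193, 132, 129 and 185 in DKO. Its groups did not overlap either, and the DKO mean was 50.1% of the WT mean (edgeR adjusted p 0.163). Uqcr10 averaged 852 ± 269 CPM in WT (SD, n = 3) and 473 ± 138 in DKO (SD, n = 4), with a log2 fold change of -0.85. The other small subunits had wider overlap: Uqcr11, with a log2 fold change of -0.68, and Uqcrb, at 267 ± 64.5 and 186 ± 39.6 CPM, had DKO replicate 4 above the lowest WT library. Without WT replicate 4 the log2 fold change of Uqcr11 was -0.26, that of Uqcrb -0.32, that of Uqcr10 -0.58 and that of Uqcrh -0.53.

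Among the larger subunits, the Rieske iron-sulfur protein Uqcrfs1, which takes electrons from ubiquinol, was at 1067, 1077 and 1514 CPM in WT and at 988, 725, 828 and 885 in DKO, without overlap. The core subunits differed from each other. Uqcrc2 had a log2 fold change of -0.52 (1013 ± 217 CPM in WT and 706 ± 114 in DKO), while Uqcrc1, named after its values were seen, stood at 645 ± 76.3 and 675 ± 44.6 CPM, or 0.07, with a standard error of 0.16. Cyc1, the haem-bearing cytochrome c1, also named after its values were seen, was at 779.5 ± 208 and 583 ± 58.3 CPM, a log2 fold change of -0.42. Its unadjusted p did not reach 0.05. Uqcrfs1 was at -0.33, Uqcrc2 at -0.34 and Cyc1 at -0.18 without WT replicate 4.

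Cycs (ENSMUSG00000063694, chr6:50562563-50566538, minus strand), the somatic cytochrome c, was at 131, 104 and 242 CPM in WT replicates 1, 2 and 4. In DKO replicates 1 to 4 it was at 77.4, 74.2, 67.6 and 106. Only DKO replicate 4 reached the WT range, where it was just above WT replicate 2. The log2 fold change was -0.97 with a standard error of 0.27 and an edgeR adjusted p of 0.163, -0.86 with the length and GC trend removed, and -0.53 without WT replicate 4.

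In complex IV, 14 of 17 members were lower in DKO, 8 of them at an unadjusted p under 0.05, with a median of -0.56. The genes for subunits present in most tissues accounted for all 8. Cox4i1, the regulatory subunit that binds ATP, was at 2669.5, 2658 and 3933 CPM in WT and at 2435, 1552, 1882 and 2087 in DKO. The groups did not overlap, and the log2 fold change was -0.63 (standard error 0.22, edgeR adjusted p 0.169). Per kilobase of merged exon, Cox4i1 had the highest WT level of the members, at 1992 CPM per kb, followed by Cox8a at 1862 and Cox6b1 at 1500.1.

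Cox7b (ENSMUSG00000031231, chrX:106015700-106022450, plus strand), a small subunit of the enzyme's membrane part, had the most negative fold change of complex IV. It was at 541, 607 and 1587 CPM in WT and at 464, 338, 307 and 429 in DKO. Although the groups did not overlap, WT replicate 4 was well above everything else, and the log2 fold change of -1.25 (standard error 0.35, edgeR adjusted p 0.163) became -0.58 without it. Cox6b1, which lies where the monomers of the complex IV dimer meet, was at 971, 1019.6 and 1195 CPM in WT and at 830.3, 604, 463 and 888 in DKO, and its log2 fold change went from -0.61 to -0.52 without WT replicate 4.

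The zinc-binding subunit Cox5b also separated the groups, at 273 ± 26.8 CPM in WT (SD, n = 3) and 186 ± 35.9 in DKO (SD, n = 4), as did Cox7a2, at 1223 ± 495 and 715 ± 158. Cox8a averaged 1152 ± 282 and 702 ± 179 CPM, and Cox6a1 433 ± 90.2 and 309 ± 66.9. In both genes a DKO library lay above the lowest WT library. Further members, Cox7c, Cox6c, Cox5a, Cox7a2l and Cox5b-ps, were named after their values were seen. Cox7c and Cox6c had log2 fold changes of -0.70 and -0.66, which were -0.42 and -0.18 without WT replicate 4. Without that library Cox7a2 was at -0.40 and Cox4i1 at -0.42. Cox5a and Cox7a2l, the latter a factor that joins complexes III and IV into supercomplexes, were at -0.28 and -0.27, neither at an unadjusted p under 0.05. Cox5b-ps, a single-exon copy of Cox5b that the files class as protein-coding, had 7.61 ± 2.44 CPM in WT and 7.62 ± 4.79 in DKO.

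Several complex IV subunits, and the c subunit of complex V, come in isoforms from separate genes. Cox6a2, Cox7a1 and Cox8b are the forms of heart and skeletal muscle, Cox4i2 is the form of lung and of low oxygen, and Cox6b2 is the testis form. All were minor in these kidneys. All shares were taken on reads divided by merged exon length. On that scale the share of Cox7a1 in its pair with Cox7a2 was 6.39%, 5.70% and 6.18% in WT and 5.32%, 6.19%, 2.93% and 7.56% in DKO. The share of Cox8b in its pair averaged 1.76% ± 0.723 (SD, n = 3) in WT and 2.18% ± 0.628 (SD, n = 4) in DKO.

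The shares of the other minor isoforms were below 1% on average. Cox6a2 made up 0.657% ± 0.169 of its pair in WT and 0.851% ± 0.374 in DKO, Cox6b2 0.176% ± 0.0274 and 0.344% ± 0.202, and Cox4i2 0.0604% ± 0.0286 and 0.0971% ± 0.0341. Of the 3 genes for the identical mature c subunit of ATP synthase, Atp5mc1 gave 20.7% ± 2.78 of reads in WT and 19.7% ± 2.47 in DKO. In a two-sided exact permutation test over the 35 ways to place the labels, p for the 6 shares ranged from 0.2 to 0.714. The smallest p this design allows is 0.0286, so no single share could have passed after adjustment over 6, and the test does not show that the shares were alike. Striated muscle markers summed to 1.66 to 1.92 CPM in WT and 1.49 to 64.7 in DKO, the highest being DKO replicate 1, where Ckm was at 29.0 CPM and Acta1 at 23.0. In that library the muscle forms did not stand out. Cox6a2 was at 1.89 CPM, the lowest of all 7. Cox7a1 was at 26.7, within the DKO range of 9.23 to 39.8, and Cox8b at 10.4, within the DKO range of 4.05 to 12.7. White and brown adipocyte markers summed to more, 162 to 374 CPM in WT and 322 to 506 in DKO. Of these 8 markers 4 were lower and 4 higher, where 46.8% of all genes were lower. Ucp1, 1 of them, was at 6.69, 34.2 and 60.3 CPM in WT and at 13.6, 33.7, 11.9 and 40.4 in DKO. The part of fat or muscle tissue in the isoform values was not tested.

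In complex V all 18 members were lower in DKO, 12 at an unadjusted p under 0.05 and 9 with every DKO library below every WT library, and the median was -0.60. The catalytic head of ATP synthase is built mainly of Atp5f1a and Atp5f1b, the alpha and beta subunits, and these had the values nearest to 0. Atp5f1a was at 2014, 2269 and 2278 CPM in WT and at 2284, 1823, 2189.9 and 2020.3 in DKO, with a log2 fold change of -0.07 (standard error 0.17). Atp5f1b was at 2405, 3321 and 2567 CPM in WT and 2862, 2295, 2291 and 2447 in DKO, with -0.16 (standard error 0.19). Both overlapped widely between groups.

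The central stalk turns within the head. Its gamma subunit, Atp5f1c, was at 1883, 1935 and 2538 CPM in WT and at 1704, 1271, 1371 and 1382 in DKO, which did not overlap, with a log2 fold change of -0.57 (standard error 0.19, edgeR adjusted p 0.164). The delta and epsilon subunits of the stalk were named after their values were seen: Atp5f1d was at -0.34 and Atp5f1e, at 319 ± 128 CPM in WT and 152 ± 60.3 in DKO, at -1.07. They were at -0.18 and -0.70 without WT replicate 4.

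The peripheral stalk holds the head still. Its subunit b, Atp5pb (ENSMUSG00000000563, chr3:105942698-105960099, minus strand), was at 1591, 1426 and 2361 CPM in WT and at 1233, 1058, 1005 and 1177 in DKO, without overlap. The log2 fold change was -0.68 (standard error 0.21, edgeR adjusted p 0.163) and -0.43 without WT replicate 4. Subunit d, Atp5pd, averaged 568 ± 170.2 CPM in WT (SD, n = 3) and 345 ± 59.4 in DKO (SD, n = 4), or -0.72. Coupling factor Atp5pf and Atp5po, the latter the oligomycin sensitivity subunit, were named after their values were seen, at -0.60 and -0.29. Atp5pd was at -0.45 and Atp5pf at -0.34 without WT replicate 4.

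In the membrane part, the c subunit genes that build the rotor ring were all lower. Atp5mc1 was at 509, 458 and 749 CPM in WT and at 362, 359.8, 354 and 428 in DKO, and Atp5mc3 averaged 938 ± 168 and 669.6 ± 92.7 CPM. Neither overlapped between groups. Atp5mc2, the least abundant of the 3, was at 20.6 ± 5.32 CPM in WT and 14.2 ± 3.14 in DKO, and did overlap. Subunit f, Atp5mf, was at 262, 269 and 467 CPM in WT and at 208, 194, 147 and 232 in DKO, a log2 fold change of -0.77. Of the accessory membrane subunits named after their values were seen, Atp5mk, Atp5me, Atp5mg and Atp5mj had log2 fold changes of -1.31, -1.02, -0.92 and -0.49. Their values without WT replicate 4 were -0.60, -0.68, -0.03 and -0.20. Atp5mg was at 46.4 CPM in that library and at 12.7 and 13.3 in the other WT libraries, and its DKO libraries ran from 10.1 to 16.3, so its difference rests on WT replicate 4. The values of Atp5mc1, Atp5mc2 and Atp5mf without it were -0.37, -0.32 and -0.44.

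Atp5if1, the inhibitor that stops the enzyme from running backwards when the proton gradient collapses, went the same way as the subunits. It was at 537, 599 and 848 CPM in WT and at 444, 385, 239 and 468 in DKO, without overlap, with a log2 fold change of -0.78 (standard error 0.25, edgeR adjusted p 0.164). For Atp5if1 and Atp5po, 33.7% and 47.9% of exon length lies under another annotated gene. The library kit did not keep strand, so reads of such partners cannot be told apart. Several members also have processed pseudogenes with counts of their own, of which Atp5pb-ps, at 38.6 CPM in WT and 24 in DKO, was the most abundant of those examined, and their values are uncertain to the extent that reads were split.

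**Figure D3:**
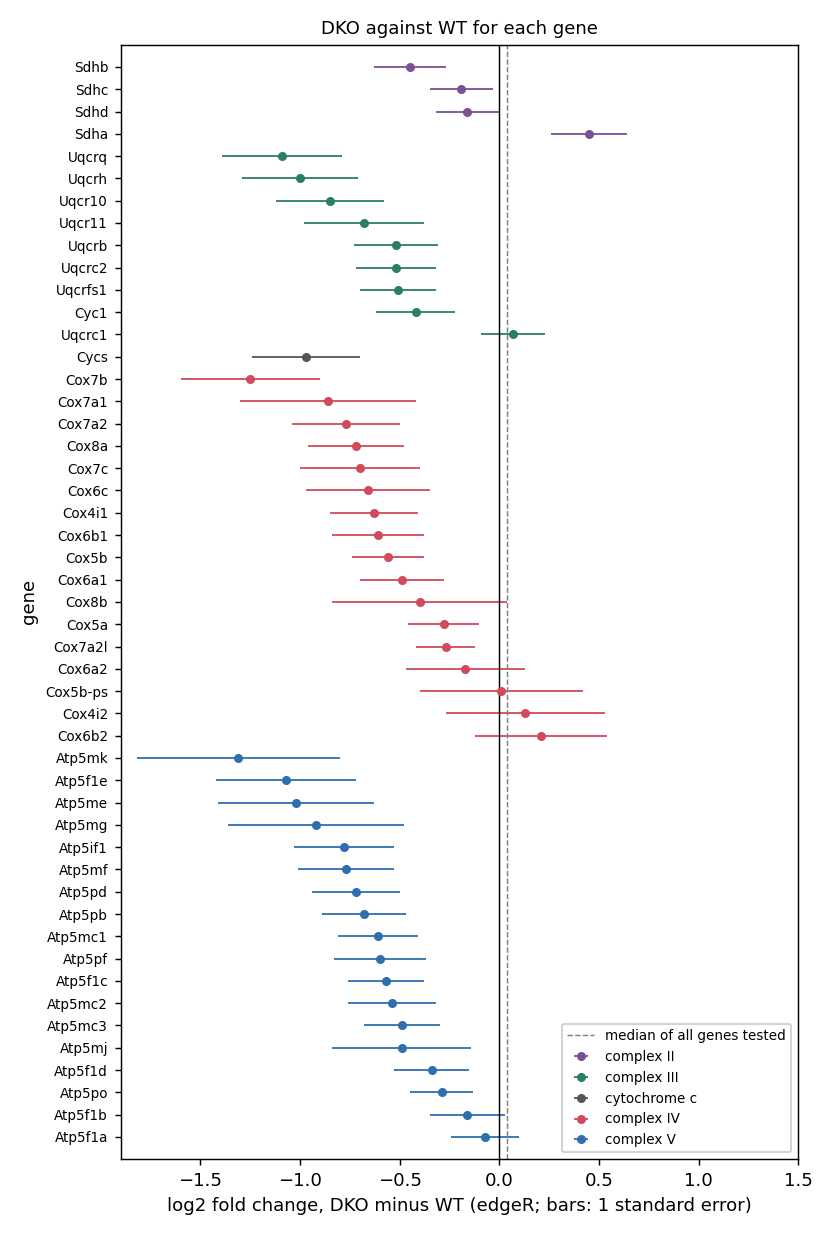
Log2 fold change, DKO minus WT, of each member from edgeR (points, bars of 1 standard error), coloured by complex, with the median of all genes tested, 0.04, as a dashed line. All complex V genes lie below 0, Atp5f1a and Atp5f1b nearest to it, and Sdha at 0.45 lies farthest to the right.

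The members code mostly for small proteins, and fold change varied with coding length both among them and among all genes. Of the 32 members with a longest coding sequence under 150 residues, 30 were lower in DKO and 22 (68.8%) were lower at an unadjusted p under 0.05, with a median of -0.67. All 916 tested genes of that length had a median of -0.46, and 44.8% were lower at that p. Of the 17 members of 150 residues or more, 7 (41.2%) were lower at that p, with a median of -0.34, where the 12565 such genes had a median of 0.07 and 8.48%. Across members, Spearman's rho between coding length and log2 fold change was 0.64 (49 genes). Across all genes it was 0.50 (13481 genes). With merged exon length, rho was 0.09 across members and 0.40 across all genes (15369 genes). Both are descriptions across genes that share the same 7 libraries.

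Within complexes III and V the same order held. The 5 short genes of complex III had a median of -0.85 and its 4 longer genes -0.46. In complex V the medians were -0.77 (11 genes) and -0.34 (7 genes). In complex IV they were -0.56 (15 genes) and -0.25, but the longer class held only 2 genes. These were Cox4i1 at -0.63, below the short median, and Cox4i2, at 0.885 CPM in WT, at 0.13. The order was therefore not clear in complex IV. All members of complex II were in the longer class. Short genes outside the members also varied by library. The median of 884 such genes, relative to the WT mean, was -0.12, -0.14 and 0.27 in WT replicates 1, 2 and 4 and -0.28, -0.55, -0.60 and -0.31 in DKO replicates 1 to 4. The short members stood at -0.32, -0.18 and 0.48 in WT and -0.45, -0.77, -1.13 and -0.37 in DKO, so WT replicate 4 was highest and DKO replicates 2 and 3 lowest in both sets. The part of transcript length or RNA quality in the members' values was not tested beyond a fit with the trend of fold change with exon length and GC content removed. In that fit 18 members were lower at an unadjusted p under 0.05, against 9.87% of all genes, 41 were lower at any p, and the median was -0.36. That fit uses exon length, not coding length, and left much of the difference of short genes in place: the median of all genes under 150 residues was -0.30 with the trend removed, and that of the short members -0.44.

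**Figure D4:**
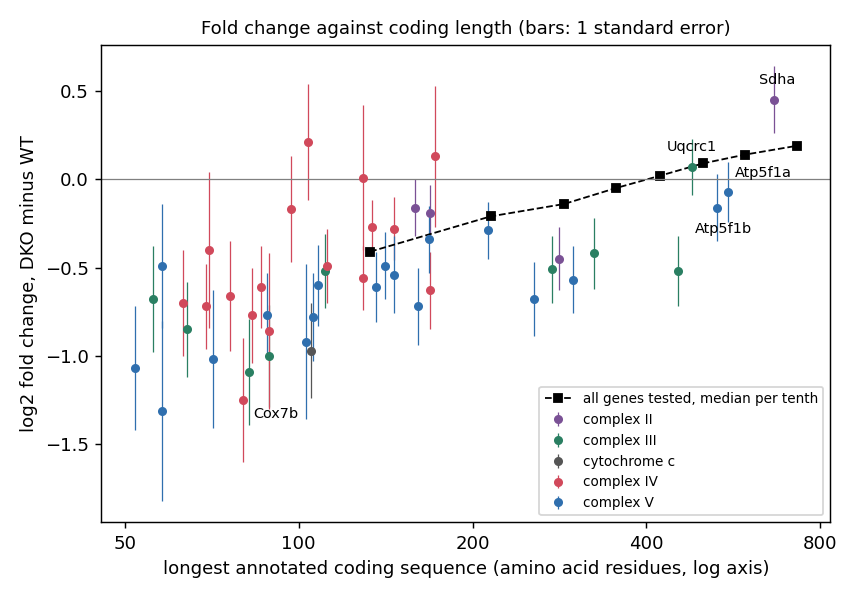
Log2 fold change of each member (points by complex, bars of 1 standard error) against the residues of its longest annotated coding sequence on a log axis. Squares joined by a dashed line are medians of all genes tested in 10 equal bins of coding length, of which the 2 of longest genes lie beyond the axis. The bins start at -0.41 for the shortest genes, the members run from -1.31 to 0.45, and the lowest of them are short.

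Promoters were examined for motifs of factors known to act on respiratory genes, since many members had values in the same direction. RefSeq windows (GRCm38.p6) from 250 bases before to 50 after the start matched 37 of 49 members. On either strand, CGCATGCG, a core of the NRF1 site, was in 8 of them (21.6%) and in 2.07% of all 27025 genes with such windows. CCGGAAG, an ETS core of the kind GABP binds, was in 13 (35.1%) and in 9.93% of all genes. CAAGGTCA, of the oestrogen-related receptors, was in 3 (8.11%, against 1.76%), and AAGATGGCG, of YY1, in 2 (5.41%, against 1.64%). At least 1 of the 4 was in 18 members (48.6%), against 14.4%. None of the 4 strings contains another. The 27025 genes were not limited to those tested in these kidneys, and a share over the tested genes was not taken.

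The 120 bases before the annotated start are shown for members that the results turn on or that hold a motif, 5′ to 3′ on the gene's strand. Capitals mark the NRF1 core in Cycs (chr6:50566570-50566689, minus strand) and Atp5mc2 (chr15:102671048-102671167, minus strand). They mark the ETS core, here on the opposite strand and so read as CTTCCGG, in Uqcrh (chr4:116075071-116075190, minus strand) and Cox6b1 (chr7:30626115-30626234, minus strand). Cox7b (chrX:106015580-106015699, plus strand) and Sdha (chr13:74350241-74350360, minus strand) hold none of the 4 in their windows and are shown as the complex IV member with the most negative fold change and as the member that was higher in DKO.
Cycs: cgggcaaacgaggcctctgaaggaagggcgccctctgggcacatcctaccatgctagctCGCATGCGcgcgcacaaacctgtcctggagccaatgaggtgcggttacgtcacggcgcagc
Atp5mc2: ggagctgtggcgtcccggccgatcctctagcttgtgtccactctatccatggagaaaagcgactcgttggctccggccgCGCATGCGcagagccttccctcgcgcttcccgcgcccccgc
Uqcrh: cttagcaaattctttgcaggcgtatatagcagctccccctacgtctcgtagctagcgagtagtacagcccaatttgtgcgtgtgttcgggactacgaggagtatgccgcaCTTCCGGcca
Cox6b1: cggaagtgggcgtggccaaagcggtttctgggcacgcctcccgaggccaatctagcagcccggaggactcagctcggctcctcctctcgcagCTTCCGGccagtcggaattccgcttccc
Cox7b: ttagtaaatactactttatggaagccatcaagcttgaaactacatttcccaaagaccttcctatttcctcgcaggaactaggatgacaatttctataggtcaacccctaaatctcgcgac
Sdha: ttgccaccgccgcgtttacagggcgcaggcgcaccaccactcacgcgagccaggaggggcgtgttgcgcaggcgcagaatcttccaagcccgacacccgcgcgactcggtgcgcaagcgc

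The first base of the motif lay 61 bases before the start in Cycs, 41 in Atp5mc2, 10 in Uqcrh and 28 in Cox6b1. Members with and without the NRF1 core had median log2 fold changes of -0.64 (8 genes) and -0.61 (29 genes). With and without the ETS core the medians were -0.72 (13 genes) and -0.55 (24 genes). Cycs and Cox7b, which have and lack a motif, had log2 fold changes of -0.97 and -1.25. A match of letters is a description, and no binding was measured.

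The dedicated assembly factors of the complexes did not all have values like those of the subunits. All 4 factors of complex II were lower in DKO at an unadjusted p under 0.05, against 11.3% of all genes, with a median of -0.65. The complex II subunits, all of 150 residues or more, had a median of -0.17. Sdhaf1, Sdhaf3 and Sdhaf4 code for 118, 125 and 104 residues and Sdhaf2 for 166. All tested genes under 150 residues had a median of -0.46, with 44.8% lower at that p. The part of coding length in this contrast was not tested. Sdhaf4, which helps flavinated Sdha join Sdhb, was at 88.2, 99.9 and 144 CPM in WT and at 79.7, 57.8, 55.9 and 74.7 in DKO, without overlap. Sdhaf2, which inserts the flavin into Sdha, averaged 72.2 ± 13.5 CPM in WT (SD, n = 3) and 50.7 ± 6.48 in DKO (SD, n = 4), without overlap, and Sdhaf1, which serves the iron-sulfur clusters of Sdhb, 18.2 ± 8.07 and 10.2 ± 3.17. With the length and GC trend removed the median of the 4 was -0.60, and without WT replicate 4 it was -0.39.

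For complex III, 5 of 6 factors were lower, against 46.8% of all genes, and 3 at an unadjusted p under 0.05, against 11.3%. Uqcc2, needed for cytochrome b, was at 95.9 ± 27.4 CPM in WT and 51.7 ± 13.4 in DKO (log2 fold change -0.89), Uqcc1 was at -0.39 and Lyrm7, which matures the Rieske protein, at -0.46. Complex IV factors were split, with 11 of 19 lower, 7 lower and 3 higher at an unadjusted p under 0.05, and a median of -0.13. Of all genes, 9.86% were higher at that p. Coa3, an early factor for the Cox1 core subunit, was at 526 ± 93.2 and 322 ± 50.8 CPM, a log2 fold change of -0.71, and Cox19 and Coa6, both of the copper delivery route, were at -0.65 and -0.96. Other factors of that route, named after their values were seen, had positive values: Cox11 was at 0.63 (15.5 ± 1.41 CPM in WT and 24 ± 5.54 in DKO), Cox17 at 0.43 and Sco1 at 0.30. The 3 factors higher at that p were Cox11, Coa5 (0.46) and Lrpprc (0.32), with Coa5 and Lrpprc also named after their values were seen. Complex V factors had 2 of 5 lower, Fmc1 at -0.98 and Tmem70, which helps to build the rotor, at -0.59. Oxa1l, which inserts proteins into the inner membrane, was at 0.13. Of the complex IV list, Sco2 and Pet117 were listed at 0. Without WT replicate 4 the medians of the complex III, IV and V factors were -0.23, -0.06 and 0.02. With it they were -0.27, -0.13 and 0.03. Without it Lyrm7 was at -0.25, Coa6 at -0.49, Fmc1 at -0.59 and Tmem70 at -0.29. Uqcc2, Coa3, Cox19, Coa6 and Fmc1 code for 136, 108, 92, 79 and 113 residues. Uqcc1 and Tmem70, also lower, code for 295 and 254, and Cox17 and Coa5, both higher, for 63 and 74. The part of coding length was not tested.

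The mitochondrially encoded partners could be followed only in part, because mt-Co2, mt-Atp6 and mt-Atp8 were listed at 0 in every library and mt-Co3 had 1 read in all. The mt-Cytb gene of complex III was at 2242, 1817 and 2399 CPM in WT and at 2173, 1957, 2014 and 2757 in DKO, with a log2 fold change of 0.05 (standard error 0.19), which was 0.41 with the length and GC trend removed. The mt-Co1 gene of complex IV averaged 1261 ± 295 CPM in WT (SD, n = 3) and 1073 ± 264 in DKO (SD, n = 4), or -0.23 (standard error 0.24), which was 0.10 with the trend removed. Both overlapped between groups.

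Other mitochondrial lists had smaller medians. Of 13 citric acid cycle enzymes, 7 were lower and 1, fumarase Fh1 (473 ± 166 CPM in WT and 292 ± 65.4 in DKO, -0.70), was lower at an unadjusted p under 0.05, with a median of -0.03. Fh1 was at 661 CPM in WT replicate 4 against 349 and 408 in the other WT libraries. Without that library its log2 fold change was -0.38 and it no longer passed that p. Ogdh was at 0.39 and Idh3g at -0.24. Among all genes, 46.8% were lower and 11.3% were lower at that p. Of 13 membrane carriers and import subunits, 12 were lower, 4 of them at that p, with a median of -0.20. Slc25a4, the ADP/ATP carrier that brings ADP to complex V, was at 2584, 2132 and 3847 CPM in WT and at 2020.2, 1646, 1884 and 1889 in DKO, without overlap, a log2 fold change of -0.62, or -0.34 without WT replicate 4. Slc25a5, the other abundant ADP/ATP carrier (named after its values were seen), averaged 2471 ± 337 CPM in WT and 2605 ± 201 in DKO, or 0.08. The import subunits Tomm22 and Timm23 were at -0.45 and -0.43.

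Of 12 regulators of mitochondrial biogenesis, 8 were higher in DKO, 4 of them at an unadjusted p under 0.05, against 1 lower, with a median of 0.23. Among all 15394 genes tested, 8195 were higher, with 9.86% higher and 11.3% lower at that p. With the length and GC trend removed 6 of the 12 regulators were higher and their median was 0.05. Ppargc1a, a coactivator of respiratory gene transcription, was at 34.6, 33.4 and 32.7 CPM in WT and at 40.8, 54.6, 48.8 and 49.1 in DKO, without overlap. Its log2 fold change was 0.53 (standard error 0.15, edgeR adjusted p 0.163), 0.42 with the length and GC trend removed and 0.50 without WT replicate 4. Nrf1 was at 15.7 ± 1.28 CPM in WT and 20.7 ± 1.41 in DKO, a log2 fold change of 0.40, which was 0.16 with the trend removed. Polrmt, the mitochondrial RNA polymerase, was at 0.51. Esrra, an oestrogen-related receptor and the 1 regulator lower at that p (named after its values were seen), was at -0.56, and at 56.3 CPM in WT replicate 4 against 29.8 and 29.6 in the other WT libraries.

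Markers of several kidney cell types were read beside these values. Among all 15394 genes tested, 7199 were lower and 8195 higher in DKO, and 11.3% were lower at an unadjusted p under 0.05. Proximal tubule markers summed to 11957 to 13083 CPM in WT and 11327 to 13986 in DKO, with 7 of 10 higher. Of 6 thick ascending limb markers, 5 were lower, 4 of them at an unadjusted p under 0.05, with sums of 6181 to 9915 CPM in WT and 4499 to 6779 in DKO. Most of that sum is Umod, at 6419 ± 1649 CPM in WT and 3996 ± 995 in DKO, while Slc12a1, the salt transporter of the same cells, had a log2 fold change of 0.31. All 6 intercalated cell markers were lower, with sums of 267 to 464 CPM and 215 to 286, and 5 of 6 podocyte markers were higher, with sums of 88.7 to 100.1 CPM and 104 to 135. Of 4 distal convoluted tubule markers, 2 were lower and 2 higher, with sums of 998 to 1853 CPM in WT and 1061 to 1837 in DKO. The part of cell makeup in the members' values was not tested.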

How the data were processed

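RNA from 7 kidneys was made into unstranded Nextera XT libraries and sequenced on a HiSeq2500, per the labels' protocols. Reads were aligned with STAR 2.5.2a, per the submitters' processing notes, which also list edgeR, limma and DESeq2; those notes name no counter, annotation release or strand setting. The authors deposited raw counts per gene, a filtered count table, and a table of TMM-scaled CPM, treated here as a signal because its columns sum to unlike totals. From the CPM table only symbols and biotypes were taken, after the counts and CPM were checked to be proportional within each library. The 24 transgene and spike-in entries (at most 0.000697% of a library) were left out.

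Genes were filtered with filterByExpr (minimum count 10, total 15), scaled by TMM and tested with edgeR 4.0.16 (quasi-likelihood, robust, R 4.3.3) on WT against DKO, with Benjamini-Hochberg adjustment. CPM values printed are TMM-scaled. Alternatives were DESeq2 1.42.0, limma-voom 3.58.1, other scalings, no filter, a replicate block, a length and GC trend removed with mgcv 1.9.3 (lengths and positions from GENCODE M21, GRCm38), and leaving out each library. The scripts were tested on simulated data. Counts limit precision only slightly for the abundant members; p-values measure the spread between animals.

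Members and lists were chosen with earlier results of these data known. Named members were those with the smallest p (up to 6) and the highest level per kilobase (up to 3) in each class, tissue isoforms, any at an unadjusted p under 0.05 and higher in DKO, the 3 highest fold changes, and the 3 smallest p in each pathway list; others are marked as named after their values were seen.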

Additional observations from a re-analysis of the deposited data

Results flagged for a closer look

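In the DKO group of 4 libraries, 1 library lay far from the other 3 in 4 of the 55 groups of values examined, judged by its gap to the nearest library as a share of the whole range. Atp5mc1 was at 428 CPM in DKO replicate 4, with the other DKO libraries at 354 to 362. Sdhb was at 1993 CPM in DKO replicate 1, with the others at 1538 to 1600.2. Cox5b was at 239 CPM in DKO replicate 1, with the others at 161 to 172. Cox5b-ps was at 14.8 CPM in DKO replicate 4, with the others at 4.72 to 5.85. The lone library was the highest in each case. Chance flags about 1 in 20 groups.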

How the results depend on the processing

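The sign of 29 of the 34 members named by the rule was the same in all 17 alternatives; the other 5 were Cox4i2, Cox6a2, Cox6b2, Cox8b and Sdhd. DESeq2 called 11 members past an adjusted p of 0.05, against 0 in edgeR; the cause was not tested. Whether equal replicate numbers pair the libraries could not be decided. The correlations of deviations were -0.133, 0.164 and 0.135 for numbers 1, 2 and 4. WT replicate 2 correlated best with DKO replicate 2, WT replicate 4 with DKO replicate 1 (0.162) and WT replicate 1 with DKO replicate 2 (0.0994). The deviations were taken within groups of 3 and 4 libraries, too few to show or exclude pairing. With the replicate block, 21 members were lower and 0 higher at an unadjusted p under 0.05 (29 and 1 without it), against 7.7% of all genes lower (11.3% without it), and Cox6b2 reversed to -0.0023.

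With the length and GC trend removed, 18 members were lower at that p, the complex II median was -0.05, and Cox6a2, Cox8b and Sdhd reversed to 0.17, 0.03 and 0.09. With the block and the trend removed together, 11 were lower (against 6.89% of all genes) and 0 higher, the medians of complexes II and IV were -0.04 and -0.17, and Cox8b and Sdhd were at 0.31 and 0.03. With only WT replicates 1 and 2 and DKO replicates 1 and 2, 3 were lower and 0 higher, and Cox4i2 and Cox8b were at -0.12 and 0.32. With the trend removed and WT replicate 4 left out, an alternative chosen after seeing the data, 6 were lower (against 4.31% of all genes) and 0 higher, the medians of all members and of complexes III, IV and V were -0.26, -0.18, -0.20 and -0.32, and Cox6a2, Cox8b and Sdhd were at 0.21, 0.38 and 0.03. The cause of these shifts was not tested.

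Leaving out each library in turn gave 11 (without WT replicate 4) to 33 members lower and 0 to 1 higher, a median of -0.32 to -0.02 for complex IV assembly factors and of -0.06 to 0.04 for citric acid cycle enzymes, and log2 fold changes of -0.09 to 0.39 for Cox4i2, -0.35 to 0.0025 for Cox6a2 and -0.71 to 0.19 for Cox8b. Depth limits the isoforms of few reads: Cox4i2 had 136 reads over all libraries and Cox6a2 369.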
